A study of Mus musculus with 4 samples.

Results

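Chemoattractant and tissue homing receptors steer regulatory T cells (Tregs), the Foxp3-expressing CD4 T cells that restrain immune responses, into lymphoid and peripheral tissues. The 8 receptor genes described here were Cxcr3, Cxcr6, Ccr2, Ccr1, Ccr10, Gpr15, Ltb4r1 and Gpr183. They were chosen by name from the rows of a deposited table of 282 genes, with earlier results of these data known. RNA was sequenced from Tregs of male Foxp3RFP-Cre.RosaYFPMll1fl/fl mice, 6 to 8 weeks old, with 300000 cells sorted per population from spleen and lymph nodes at a stated purity above 95%. RFP and Cre were driven from Foxp3, and YFP from the Rosa locus marked cells in which Cre had acted. The 2 YFP-positive libraries were labelled MLL1KO, and the 2 YFP-negative libraries, from Tregs with the same transgenes and floxed alleles, were labelled WT. Titles gave mouse numbers 1 and 2 to both populations, without saying whether a number was a single animal or a pool. They also did not say whether a number meant the same animals in both populations. Below, mouse 1 and mouse 2 stand for these numbers.

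All 8 genes encode G protein-coupled receptors on the cell surface. Ligand binding activates inhibitory G proteins, and the cell polarizes and moves up the ligand gradient. Resting T cells recirculate through lymphoid organs, whereas activated and effector T cells, Tregs included, acquire receptors for inflamed tissue, skin and gut. MLL1, the product of Kmt2a, is a histone methyltransferase, and its CXXC domain binds unmethylated CpG dinucleotides.

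Each receptor gene was lower in both YFP-positive libraries than in both YFP-negative libraries. The difference ranged from 2.40-fold for Gpr183 to 17.6-fold for Ccr1, in means of normalized counts (gene read counts divided by a size factor per library). All 282 listed genes had been selected by the authors on this same comparison, since no listed gene had an adjusted p of 0.05 or more or an absolute log2 fold change below 1. Direction and significance of the 8 genes were therefore fixed by the selection and are given as description. Of the 282 genes, 69.5% were lower in YFP-positive Tregs without overlap of the groups, and 100% passed limma with Benjamini-Hochberg adjustment at 0.05. In bulk RNA, fewer cells that express a gene and less RNA per cell cannot be told apart. Neither the deletion nor Treg identity is checked by these values, as Kmt2a and Foxp3 were not analysed here. The limma p-values rest less on the spread between the 2 libraries of a group than on a variance trend pooled over the 282 selected genes. For Ccr1 the SE was 0.73 with that trend and 0.37 without it. Without the trend, the limma adjusted p of Cxcr6 was 0.000641 instead of 2.39e-07, and that of Cxcr3 0.00113 instead of 1.84e-06. With the mouse number as a replicate block these limma adjusted p-values were 0.00205 and 0.00281. No other source of spread is measured.

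The promoter windows of the receptor genes are shown because the methyltransferase binds CpG DNA. RefSeq windows (build GRCm38.p6, 250 bases before to 50 bases after the start site) matched 7 of the 8 genes, all except Ccr10. The 4 windows below belong to the receptor with the highest level per length in YFP-negative Tregs (Cxcr3), those with the largest falls in limma log2 fold change among the genes with a window (Ccr1 and Ltb4r1) and the one with the smallest (Gpr183). Capitals mark each CG and each RUNX-type hexamer TGTGGT on either strand, which reads ACCACA on the other.
Cxcr3 (chrX:101734098-101734397, minus strand): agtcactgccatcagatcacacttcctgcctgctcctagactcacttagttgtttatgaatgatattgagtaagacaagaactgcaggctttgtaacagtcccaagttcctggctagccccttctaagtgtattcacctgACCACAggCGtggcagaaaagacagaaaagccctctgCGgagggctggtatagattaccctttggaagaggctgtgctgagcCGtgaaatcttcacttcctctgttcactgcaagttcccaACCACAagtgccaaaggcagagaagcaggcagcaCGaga
Ccr1 (chr9:123968643-123968942, minus strand): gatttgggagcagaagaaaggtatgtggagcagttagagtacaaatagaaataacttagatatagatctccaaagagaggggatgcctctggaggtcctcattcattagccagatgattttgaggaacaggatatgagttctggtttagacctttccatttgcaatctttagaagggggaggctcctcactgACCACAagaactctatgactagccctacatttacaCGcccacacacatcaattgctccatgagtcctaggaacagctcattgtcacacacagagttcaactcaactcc
Ltb4r1 (chr14:55765712-55766011, plus strand): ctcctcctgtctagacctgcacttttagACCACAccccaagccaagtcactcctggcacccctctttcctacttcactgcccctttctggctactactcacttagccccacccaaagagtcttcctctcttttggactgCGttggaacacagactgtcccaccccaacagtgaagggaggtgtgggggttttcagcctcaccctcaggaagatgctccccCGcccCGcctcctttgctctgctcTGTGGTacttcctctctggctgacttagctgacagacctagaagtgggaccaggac
Gpr183 (chr14:121965144-121965443, minus strand): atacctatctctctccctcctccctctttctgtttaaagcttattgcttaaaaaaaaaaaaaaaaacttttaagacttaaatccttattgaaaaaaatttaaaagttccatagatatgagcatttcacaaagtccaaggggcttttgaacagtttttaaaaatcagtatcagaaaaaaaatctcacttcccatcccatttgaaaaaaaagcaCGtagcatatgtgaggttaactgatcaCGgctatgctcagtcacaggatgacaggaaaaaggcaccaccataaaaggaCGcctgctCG

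These windows held few CG dinucleotides. Cxcr3 and Gpr183 each had 4, Cxcr6 and Ltb4r1 had 3, Gpr15 had 2, and Ccr1 and Ccr2 each had 1. The median was 7 over all 32851 windows of the reference table. It was 15 over the 133 other lower genes of the deposited table with a window, and 13 over the 52 higher genes with one (for a gene with several windows, the highest number was used). TGTGGT was found in 5 of the 7 receptor windows, namely those of Cxcr3, Cxcr6, Ccr1, Gpr15 and Ltb4r1. It was present in 16.8% of all windows, in 31 of the 133 other lower genes (23.3%) and in 11 of the 52 higher genes (21.2%). Other motifs were searched on both strands in the same way. The T-box letters TCACACC were in none of the 7 receptor windows and in 3.98% of all windows. The GATA letters AGATAA were in 1 receptor window (Ccr2) and in 11.2% of all, and the AP-1 letters TGANTCA in 1 (Gpr15) and in 7.81% of all. The KLF letters CACCC were in 2, Gpr15 with 2 matches and Ltb4r1 with 5, and in 57.5% of all. In Ltb4r1, 1 CACCC shared letters with 1 TGTGGT on the other strand. With 7 windows these counts are a description of letters, not of binding.

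**Figure D1:**
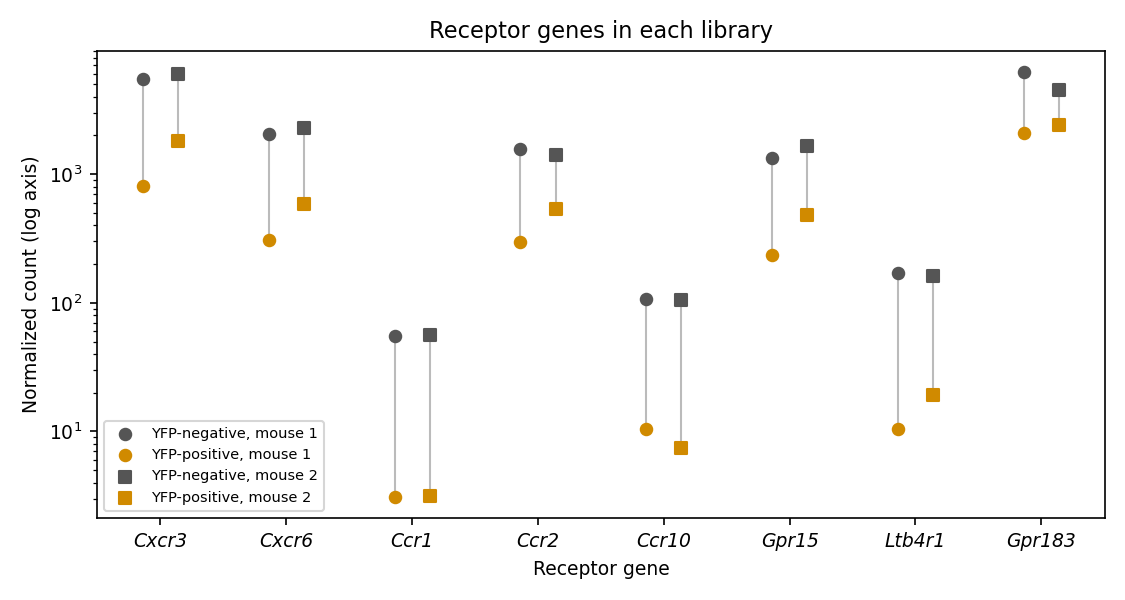
Normalized count (log axis) of each receptor gene in the 4 libraries. Circles are mouse 1 and squares mouse 2, grey YFP-negative and orange YFP-positive, and a line joins the libraries of 1 mouse number. Every orange point lies below both grey points of its gene, from 3.12 and 3.18 for Ccr1 up to 2074 and 2388 for Gpr183.

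Cxcr3 and Cxcr6 encode receptors that T cells of type 1 responses use to enter inflamed tissue. CXCR3 binds the interferon-induced chemokines CXCL9 and CXCL10, and CXCR6 binds CXCL16. Cxcr3 (ENSMUSG00000050232, chromosome X, 101731535 to 101734269, minus strand, mm10) had normalized counts of 804 and 1823 in YFP-positive mice 1 and 2, and of 5435 and 5954 in YFP-negative mice 1 and 2. The YFP-negative libraries were close to each other, whereas YFP-positive mouse 2 was 2.27 times YFP-positive mouse 1. The group means were 1313 ± 720.4 and 5695 ± 367 (SD, n = 2 each), 4.34-fold apart. On the scale of log2(normalized count + 1), limma gave a fold change of -2.23 ± 0.37 (SE), adjusted p = 1.84e-06. This value was -1.64 without YFP-positive mouse 1 and -2.82 without YFP-positive mouse 2, and it passed in both fits (limma adjusted p = 0.0121 and 0.00368).

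Cxcr6 (chromosome 9, 123806475 to 123811760, plus strand) had normalized counts of 309.9 and 582 in the YFP-positive libraries, in the same order of mice. The YFP-negative libraries had 2054 and 2274. Again the YFP-negative pair was the tighter one, and the means were 4.85-fold apart. The limma log2 fold change was -2.34 ± 0.34 (SE), adjusted p = 2.39e-07. Cxcr6 lies inside Fyco1, a gene on the opposite strand, with no shared exon bases in GENCODE M21.

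Ccr2 and Ccr1 encode receptors of inflammatory chemokines that are best known from monocytes and are also used by activated T cells. Ccr2 (chromosome 9, 124101950 to 124113557, plus strand) had normalized counts of 294 and 537 in YFP-positive and of 1562 and 1407 in YFP-negative Tregs. The YFP-positive mean was 28.0% of the YFP-negative mean, and the limma log2 fold change was -1.90 ± 0.34 (SE), adjusted p = 6.29e-06.

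Ccr1 (chromosome 9, 123962124 to 123968692, minus strand) was the lowest of the receptor genes. Its normalized counts were 3.12 and 3.18 in YFP-positive and 54.9 and 55.8 in YFP-negative Tregs. These values correspond to 3 and 3 inferred reads against 56 and 62. By these reads the YFP-negative to YFP-positive ratio was 17.6, with a 95% exact (Clopper-Pearson) interval from 7.85 to 48.9 that covers counting error only. The limma log2 fold change was -3.76 ± 0.73 (SE), adjusted p = 1.93e-05, with the 4th largest fall among the 282 genes. The authors' deposited table gives a log2 fold change of -4.13. With a pseudocount of 1, the scale used here understates the change of so low a gene.

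Cxcr6, Ccr1 and Ccr2 lie within 307 kb of chromosome 9, with 150 kb between the nearest ends of Cxcr6 and Ccr1 and 133 kb between those of Ccr1 and Ccr2. GENCODE M21 places 7 protein-coding genes in or across this interval, which is part of a chemokine receptor cluster. The deposited table lists 3 of them, the receptor genes above. Xcr1, Ccr1l1, Ccr3 and Fyco1 were not analysed here. Within this cluster the drop in means ranged from 3.57-fold for Ccr2 to 17.6-fold for Ccr1. The 95% intervals of the limma log2 fold change overlapped, at -2.58 to -1.21 for Ccr2 and -5.23 to -2.29 for Ccr1. Ccr1 had only 3 inferred reads in each YFP-positive library. A difference between these genes was not tested.

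Ccr10 and Gpr15 encode receptors of barrier tissue. CCR10 binds CCL27 of the skin and CCL28 of mucosal epithelium, and GPR15 guides T cells, Tregs among them, to the large intestine. Ccr10 (chromosome 11, 101172997 to 101175443, minus strand) had normalized counts of 10.4 and 7.42 in YFP-positive and of 107 and 105 in YFP-negative Tregs. It was the only receptor gene with a lower value in YFP-positive mouse 2 than in YFP-positive mouse 1. The 10 and 7 inferred reads behind these YFP-positive values allow a ratio between 7.27 and 20.8 by counting error alone (95% Clopper-Pearson), around 11.9. The limma log2 fold change was -3.45 ± 0.60 (SE), adjusted p = 3.97e-06. Ccr10 lies inside Cntnap1 on the opposite strand, with no shared exon bases.

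Gpr15 (chromosome 16, 58717433 to 58719070, minus strand) had normalized counts of 235 and 482 in YFP-positive Tregs, and of 1327 and 1641 in YFP-negative Tregs. Both populations were higher in mouse 2, by 2.05 times in YFP-positive and 1.24 times in YFP-negative cells. The means were 4.14-fold apart, and the limma log2 fold change was -2.13 ± 0.35 (SE), adjusted p = 1.44e-06. Cpox, on the opposite strand, overlaps 12.5% of the exon bases of Gpr15. The strand setting of the counting was not given in the sources used here, so reads from that stretch cannot be assigned to either gene.

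Ltb4r1 and Gpr183 encode receptors of lipid ligands. BLT1, the product of Ltb4r1, binds leukotriene B4 and draws leukocytes to acute inflammation. GPR183, also called EBI2, binds oxysterols and positions lymphocytes within lymphoid organs. Ltb4r1 (chromosome 14, 55765962 to 55768494, plus strand) had normalized counts of 10.4 and 19.1 in YFP-positive and of 170 and 163 in YFP-negative Tregs. YFP-positive Tregs thus kept 8.87% of the YFP-negative mean, a share close to the 8.40% of Ccr10. The limma log2 fold change was -3.47 ± 0.54 (SE), adjusted p = 7.89e-07.

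Gpr183 (chromosome 14, 121952551 to 121965195, minus strand) had the smallest difference. Its normalized counts were 2074 and 2388 in YFP-positive and 6210 and 4489 in YFP-negative Tregs. In YFP-negative cells mouse 2 was 0.723 times mouse 1, and in YFP-positive cells 1.15 times. The means were 2231 ± 222 and 5349 ± 1217 (SD, n = 2 each), and the limma log2 fold change was -1.25 ± 0.37 (SE), adjusted p = 0.00167. The authors' p-value columns imply that they adjusted over 14239 genes. With that number in the Benjamini-Hochberg adjustment of limma, Gpr183 lost its call (adjusted p = 0.0844). Its adjusted p was 0.000984 to 0.0370 in all other alternatives. The remaining 7 receptor genes stayed below 0.05, as did 169 of the 196 lower genes (59.9% of all listed genes). Gpr183 lies inside Ubac2 on the opposite strand, with no shared exon bases.

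With 1 library left out, all 8 receptor genes passed limma in each of the 4 fits. Beside them, 64.5%, 66.3%, 62.4% and 62.4% of the listed genes passed in the lower direction without YFP-positive mouse 1, YFP-positive mouse 2, YFP-negative mouse 1 and YFP-negative mouse 2. With the mouse number as a replicate block 8 of 8 passed, beside 68.4% of the listed genes in the lower direction. Each such share is out of all genes in its fit, and only 196 of the 282 genes (69.5%) were lower. Of these 196 lower genes, 193 passed with the block, so nearly all passed as the receptor genes did. With a minimum mean of 50 normalized counts 7 of 7 receptor genes passed, as did all 256 genes kept (69.1% in the lower direction). Ccr1 was below the minimum.

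The receptor genes were spread over the ranking of the listed genes. Ccr1, Ltb4r1 and Ccr10 ranked 4, 6 and 8 by size of the fall among the 282 genes, and Gpr183 ranked 177 of the 196 that were lower. The 95% interval of the limma log2 fold change was -5.23 to -2.29 for Ccr1, -4.56 to -2.37 for Ltb4r1 and -4.66 to -2.24 for Ccr10. For Gpr183 it was -1.99 to -0.50. Cxcr6, Cxcr3, Gpr15 and Ccr2 lay between, at 55, 66, 75 and 100 in the same ranking. The median log2 fold change was -2.29 over the 8 genes and -1.90 over all 196 lower genes. Whether the falls differ between receptor genes was not tested on independent data, and 2 libraries against 2 cannot give an exact two-sided permutation p below 0.333.

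Within each mouse number the receptor genes were lower in YFP-positive cells as well. The median within-mouse difference on the log2(normalized count + 1) scale was -2.74 in mouse 1 and -1.86 in mouse 2. In 6 of the 8 genes mouse 1 had the larger drop. Cxcr3 was 6.76-fold lower in mouse 1 and 3.27-fold lower in mouse 2, and Ccr2 was 5.31-fold and 2.62-fold lower. Ltb4r1 was 16.3-fold lower in mouse 1 and 8.53-fold lower in mouse 2, on 10 and 18 inferred YFP-positive reads. The exceptions were Ccr1, at 17.6-fold and 17.5-fold on 3 and 3 such reads, and Ccr10, at 10.3-fold and 14.2-fold on 10 and 7. With so few reads, counting error leaves the contrast between mice uncertain for Ltb4r1, Ccr1 and Ccr10. The same tilt ran through the table, since 161 of its 196 lower genes (82.1%) had the larger drop in mouse 1, with medians of -2.19 and -1.60.

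**Figure D2:**
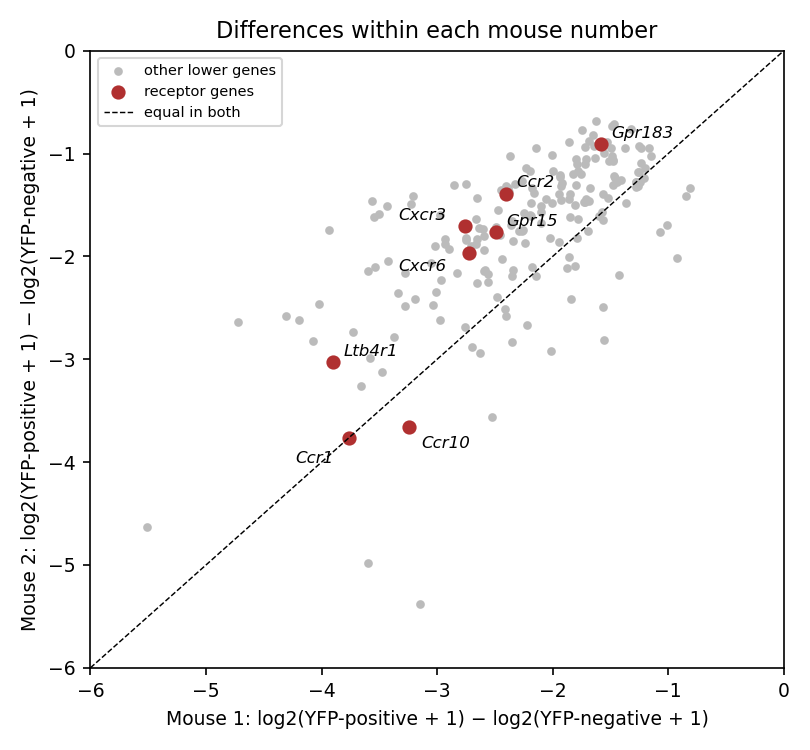
Difference between YFP-positive and YFP-negative Tregs on the log2(normalized count + 1) scale, mouse 1 on the x axis and mouse 2 on the y axis. Red points are the 8 receptor genes, grey points the other lower genes, and the dashed line marks equal values. Of the receptor genes 6 lie above the line, whereas Ccr1 (-3.76 in both) and Ccr10 (-3.24 and -3.66) do not.

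The tilt came with a gap between the 2 YFP-positive libraries. Cxcr3, Gpr15, Cxcr6, Ltb4r1 and Ccr2 were 1.82 to 2.27 times as high in YFP-positive mouse 2 as in YFP-positive mouse 1. In the YFP-negative libraries the same 5 genes were 0.901 to 1.24 times as high in mouse 2 as in mouse 1. Of the 196 lower genes, 153 (78.1%) were lower in YFP-positive mouse 1 than in YFP-positive mouse 2, with a median log2 difference of -0.43. In the YFP-negative libraries the same median was 0.06. On the log2 scale the YFP-positive pair lay further apart than the YFP-negative pair in 6 of the 8 receptor genes, all but Gpr183 and Ccr1. This count was not made over the other lower genes, so it cannot be called particular to the receptor genes.

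Levels were compared between receptor genes per kilobase of the gene length in the file, which equalled the exon length in GENCODE M21 for all 8. In YFP-negative Tregs the order was Cxcr3, Gpr183, Cxcr6, Gpr15, Ccr2, Ltb4r1, Ccr10 and Ccr1, from 3290 ± 212 down to 19.5 ± 0.222 normalized counts per kilobase (SD, n = 2). The 2 libraries kept each neighbouring pair in that order apart. In YFP-positive Tregs, Gpr183 (773 ± 77.0) and Cxcr3 (759 ± 416) overlapped at the top, as did Cxcr6 (231 ± 99.7) and Gpr15 (219 ± 107). The lower ranks did not overlap, down to 1.11 ± 0.0153 for Ccr1. The lowest of them rest on few inferred reads, 10 and 18 for Ltb4r1, 10 and 7 for Ccr10 and 3 and 3 for Ccr1. The small SD of Ccr1 comes from these equal reads and does not cover counting error.

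Summed over the 8 genes, the level per kilobase was 1545 and 2575 in YFP-positive mice 1 and 2 and 7599 and 7580 in YFP-negative mice 1 and 2. This was 4.92-fold lower in mouse 1 and 2.94-fold lower in mouse 2. Gpr183 made up 46.5% and 32.1% of that sum in YFP-positive mice 1 and 2, against 28.3% and 20.5% in YFP-negative mice 1 and 2. Its share was thus higher in YFP-positive cells under both mouse numbers, without overlap of the groups. The rise within each mouse number restates that Gpr183 fell less than the sum, by 2.99-fold in mouse 1 and 1.88-fold in mouse 2. Cxcr3 made up 30.1% and 40.9% against 41.3% and 45.4%. Cxcr6 made up 10.4% and 11.7% in YFP-positive libraries, below its 14.8% ± 1.09 (SD, n = 2) in YFP-negative libraries. Ltb4r1 went from 1.60% and 1.54% to 0.483% and 0.532%. Ccr2 held 2.82% and 3.08% in YFP-positive and 3.04% and 2.75% in YFP-negative libraries, and these overlapped, as did the shares of Gpr15. No test was made of these shares.

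**Figure D3:**
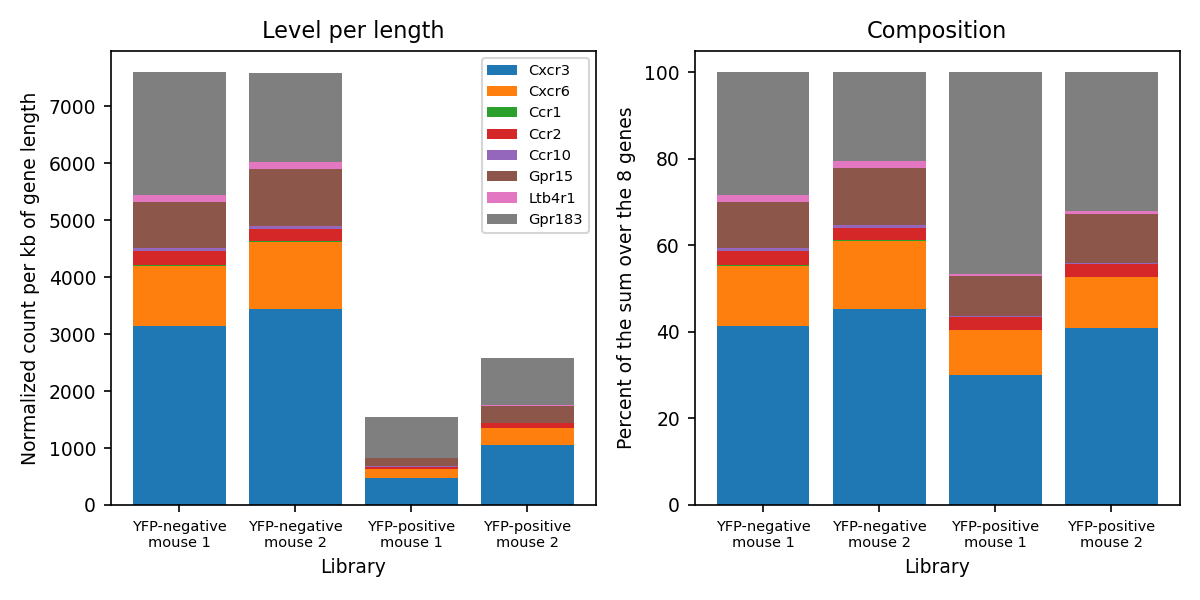
Left, normalized count per kilobase of gene length, stacked over the 8 receptor genes, for each library. Right, the same as percent of the sum, in which Gpr183 is at 46.5% and 32.1% in the YFP-positive and at 28.3% and 20.5% in the YFP-negative libraries.

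Other genes of chemoattraction and homing were taken from lists. Of 58 chemoattractant receptor genes the table held 10, and all 10 were lower (69.5% of all listed genes were), with a median log2 fold change of -2.18 against -1.90 over the 196 lower genes and -1.51 over all 282. The 2 beyond the genes above were Cysltr2, a cysteinyl leukotriene receptor gene (log2 fold change -1.74 ± 0.40), and Ccrl2 (-1.51 ± 0.36), which encodes an atypical receptor that presents chemerin. Ccrl2 had normalized counts of 471 and 381 in YFP-positive and 1893 and 770.2 in YFP-negative Tregs. Leaving out YFP-negative mouse 1 or 2 moved its log2 fold change to -0.86 or -2.16 (limma adjusted p = 0.0470 and 0.00584). Leaving out YFP-positive mouse 2 ended its call (limma adjusted p = 0.0765). The other 48 receptor genes of the list were not analysed here, so nothing can be said of their levels.

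Of 42 ligand genes and enzymes of lipid ligands, 3 were in the table and 3 were lower, where 69.5% of all listed genes were. Ccl5, whose product binds CCR1, had normalized counts of 291 and 476 in YFP-positive and of 1250.0 and 1525 in YFP-negative Tregs (log2 fold change -1.89 ± 0.34). Cxcl10, whose product binds CXCR3, had 1298 and 1136 against 4477 and 2441 (-1.44 ± 0.36). Ccl1 had 56.2 and 66.8 against 252 and 308 (-2.17 ± 0.43).

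Of 35 integrin and adhesion genes, the table held 4, and 2 rose while 2 fell. Pecam1, a cell adhesion gene, had normalized counts of 1443 and 1340.3 in YFP-positive and of 552 and 658 in YFP-negative Tregs. Its limma log2 fold change was 1.21 ± 0.33, opposite in sign to all 8 receptor genes. Itgb5, an integrin subunit gene, and Alcam were at 13.3% and 25.8% of their YFP-negative means. The call of Alcam ended when YFP-negative mouse 2 was left out (limma adjusted p = 0.0644). The log2 fold change of Itgb5 was -2.84 ± 0.66, and leaving out YFP-positive mouse 1 or 2 moved it to -2.22 or -3.47.

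Gcnt1, a glycosyltransferase gene of selectin ligands and the only one of 14 in the table, fell by 2.08 ± 0.47. Leaving out YFP-positive mouse 1 or 2 moved it to -1.43 or -2.72, and leaving out YFP-negative mouse 1 ended its call (limma adjusted p = 0.0574). Myo1f, a class I myosin gene, was the only one of 34 signalling and desensitization genes, and fell by 1.59 ± 0.35.

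Of 36 transcription factor genes linked to receptor expression, the table held 10. Bach2 rose and the other 9 fell, beside 69.5% lower among all listed genes. Tbx21 encodes T-bet, which drives Cxcr3 in type 1 T cells, and had normalized counts of 74.9 and 76.3 in YFP-positive and of 285 and 187 in YFP-negative Tregs. Its log2 fold change was -1.60 ± 0.43, and leaving out YFP-negative mouse 1 ended its call (limma adjusted p = 0.0809). Prdm1 (-1.84 ± 0.37), Id2 (-1.83 ± 0.39), Maf (-1.60 ± 0.34) and Ahr (-1.48 ± 0.36) also fell. Rora (-1.90 ± 0.39) moved to -1.17 or -2.62 when YFP-negative mouse 1 or 2 was left out, and its call ended without YFP-positive mouse 2 (limma adjusted p = 0.0742). Batf (-1.22 ± 0.40) and Gata3 (-1.09 ± 0.35) lost their calls with 14239 genes in the adjustment (limma adjusted p = 0.177 and 0.154).

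**Figure D4:**
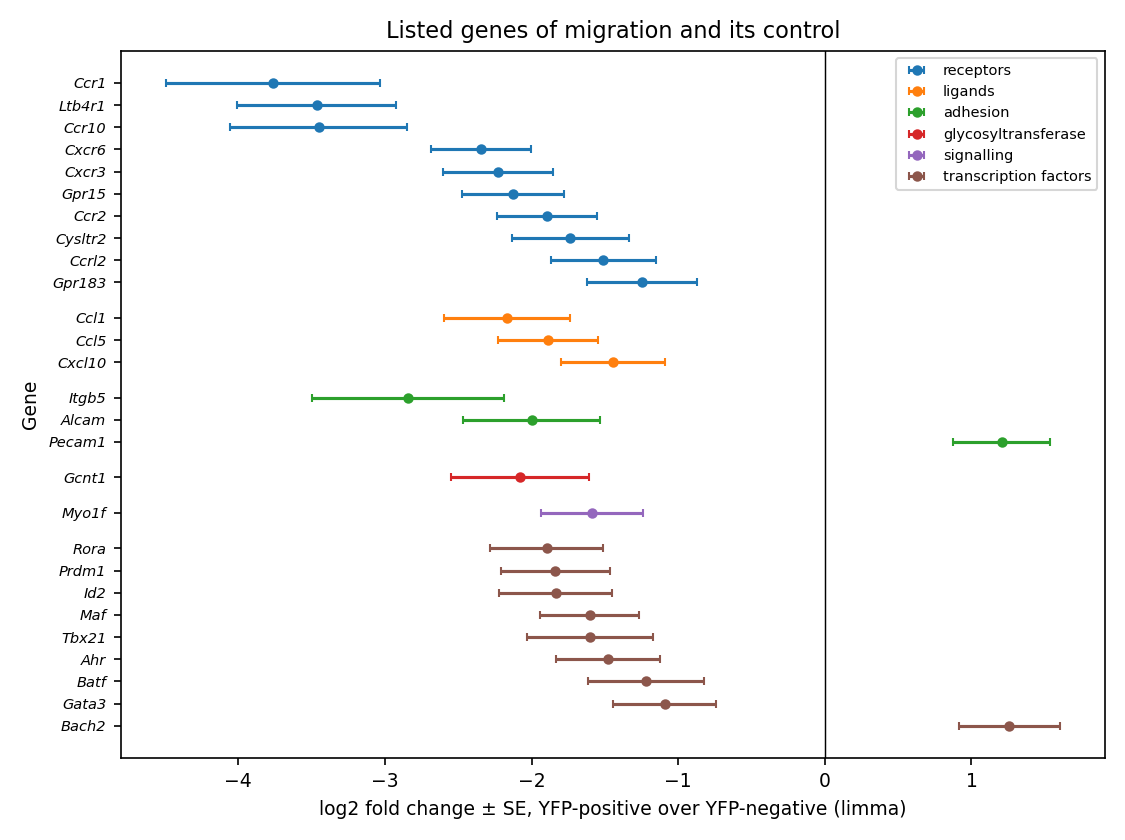
Limma log2 fold change with SE (bars), YFP-positive over YFP-negative, for the list genes named in the text, coloured by list (6 lists). The 10 chemoattractant receptor genes lie between -3.76 and -1.25, while Pecam1 and Bach2 lie above 0, at 1.21 and 1.26.

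For each receptor gene, the most similar gene outside the 8 was taken as the one with the smallest Euclidean distance between log2(normalized count + 1) profiles over the 4 libraries, each centred on its mean. Ccr2 was closest to Asb2 (distance 0.0735), with normalized counts of 284 and 514 in YFP-positive and 1504 and 1277 in YFP-negative Tregs. Gpr183 was closest to Timp2 (0.106), Gpr15 to Vsig10 (0.128), Cxcr3 to Tmem159 (0.138) and Cxcr6 to Gpm6b (0.155). The low genes had more distant neighbours, Sostdc1 for both Ltb4r1 (0.242) and Ccr1 (0.535) and Pkhd1l1 for Ccr10 (0.589). Median distances to all other genes were 1.02 to 2.32. Among the receptor genes, Cxcr3 and Gpr15 were each other's nearest (0.191), as were Ccr1 and Ccr10 (0.452). With 4 libraries in 2 groups, such distances describe the size of the drop and the gap between mice, and no more.

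Markers of other cells that the sort could hold were few in the table. Of 14 B and plasma cell markers it held Igkc, at 249 and 279.9 in YFP-positive and 1503 and 1072 normalized counts in YFP-negative Tregs, so this immunoglobulin gene moved in the direction of the receptors. Of 11 CD8 T cell and natural killer cell markers it held Gzma, at 7.28 and 37.1 against 109 and 253, also in that direction. The log2 fold change of Gzma was -3.23, and -2.13, -4.33, -3.84 and -2.63 without YFP-positive mouse 1, YFP-positive mouse 2, YFP-negative mouse 1 and YFP-negative mouse 2. Of 20 myeloid markers it held Ly6c2, which T cells also express, at 679 and 475 against 14.7 and 23.4, in the opposite direction. Of 10 gamma delta and conventional CD4 markers it held 4. Tcrg-C1, Tcrg-C4 and Igfbp4 were higher and Cd40lg lower, and the call of Igfbp4 ended without YFP-positive mouse 1 (limma adjusted p = 0.0533). The sum of the 4 was 5832 and 3876 in YFP-positive and 2651 and 1984 in YFP-negative Tregs. Igfbp4 carried this sum, and the direction turned without it. The sum was then 821 and 710.4 in YFP-positive and 874 and 1091 in YFP-negative Tregs (a sum added after the values were seen). It mixes opposite directions, since Cd40lg was at 309 and 447 in YFP-positive against 823 and 1067 in YFP-negative Tregs. The gamma delta genes were higher in YFP-positive Tregs. Tcrg-C1 was at 380 and 193 against 47.1 and 24.3, and Tcrg-C4 at 132 and 70.0 against 4.90 and 0. Of 13 Treg markers the table held Gpr83, at 5443 and 4259 against 1752 and 1442. The defining markers of these cells, such as Lyz2, Cd8a and Foxp3, were not analysed here, and the part of other cells in the receptor values was not tested.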

How the data were processed

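One deposited table of 4 sorted Treg libraries was used. The submitters' processing notes name HISAT2 2.0.5, StringTie 1.3.3b, featureCounts 1.5.0-p3, DESeq2 1.16.1 and the build mm10, whereas DEGSeq 1.16.1 stands in the design text. The signal values in the deposited table are read counts per gene, scaled to each library by the authors. The authors' log2 fold changes and p-values are printed only where named. Strand setting and treatment of multi-mapped reads were not found in the sources. The listed genes are the authors' own selection on the comparison described, so p-values are no independent evidence.

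Values were whole multiples of 1 step per library (tolerance 0.001 reads). Inferred reads summed over the listed genes to 196337 to 329350 per library, which is not the library depth.

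limma 3.58.1 (R 4.3.3) was fitted to log2(value + 1) of all 282 genes with a variance trend, no block, no filter and Benjamini-Hochberg adjustment, and was tested on simulated data. Same-numbered libraries were treated as possible pairs, since titles give both populations the same mouse numbers. Over the 282 genes, which are not independent replicates, deviations from the group means correlated between the libraries numbered 1 (Pearson's r = 0.395, Spearman's rho = 0.411). Overlapping genes came from GENCODE M21 and promoters from RefSeq (both GRCm38). The receptor genes and lists were chosen with earlier results of these data known. Named genes were the 8 receptor genes, list members in the table (a few are not reported here) and the nearest gene of each receptor gene. Alternatives covered the pseudocount, a minimum mean of 50, the trend, the block, left-out libraries, scaling, length and the number of genes in the adjustment.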

Additional observations from a re-analysis of the deposited data

How the results depend on the processing

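Of 79 alternative values of the 8 log2 fold changes, 78 kept direction and call, 1 lost its call (Gpr183, with 14239 genes in the adjustment) and 0 reversed, with direction fixed by the authors' selection. With the replicate block 279 of the 282 listed genes passed limma, and it changed no call among the 8. With 1 library left out 257 to 269 passed, where the lone library of a group is taken to spread as the other group does. Without scaling, the median log2 fold change of all listed genes shifted by -0.16, that of Cxcr3 went from -2.23 to -2.39 and that of Gpr183 from -1.25 to -1.41. With no length scaling, Cxcr3 made up 26.3% of the YFP-positive and 34.6% of the YFP-negative receptor sum (35.5% and 43.4% per kilobase), and Gpr183 32.3% of the YFP-negative sum (24.4% per kilobase). The planned count model was not run, because a check of low values did not accept the inferred reads as recovered counts. Depth limits Ccr1 most, with 3 inferred reads in each YFP-positive library.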
